A study of Homo sapiens with 39 samples.

Results

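KG-1a without drug was compared with 6 other acute myeloid leukemia (AML) lines on the vehicle arrays of a tamibarotene study. KG-1a is an undifferentiated, CD34-positive subline of KG-1, and KG-1 cells carry a fusion of FGFR1OP2 with FGFR1. The comparison used the 2 arrays titled as KG-1a vehicle and the 16 vehicle arrays of the other lines, out of 39 arrays in all. The other lines were Kasumi-1 and Sig-M5, with 2 arrays each, and OCI-M1, NOMO-1, MV-4-11 and OCI-AML3, with 3 each. Cells on these 18 arrays received the solvent DMSO for 24 hours, and the 21 remaining arrays, 3 per line, came from cells given tamibarotene, an agonist of retinoic acid receptor alpha, at a final 50 nM for the same time. The labels name each line and agent and give no genotype, passage or culture date. Nothing in them says that replicates came from separate cultures, so p-values measure only the spread between these samples.

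RNA was measured on Affymetrix arrays and is given as RMA intensity on a log2 scale, so a difference of 1 is a 2-fold difference. The difference reported throughout is the mean of the KG-1a arrays minus the unweighted mean of the 6 other line means. All 44988 probe sets with a single gene symbol were tested, out of 49395, and each of 18132 genes is read from the probe set that was brightest on average over the vehicle arrays. A gene is called where limma's Benjamini-Hochberg adjusted p is under 0.05. It stands apart where it is also at least 2-fold different and both KG-1a arrays lie outside all 16 others. The gap is the distance from the KG-1a mean to the nearest other line mean. The arrays hold no detection call used here, and the lowest 25% of values ended at 3.51 to 3.68 on each vehicle array, so folds against such low values are uncertain.

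Leukemic myeloid lines are held at different points between a stem or progenitor state and a granulocytic, monocytic or erythroid one. CD34 and a set of stem-cell transcripts mark the early end, while granule proteases, lysozyme and the class II antigen presenting machinery mark later myeloid steps. T and NK cell genes, such as those of the CD3 complex and its kinase ZAP70, belong to another branch of blood development, and some immature leukemias carry part of them.

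Promoters of 4 genes at both ends of the comparison are printed first, because the CG content of promoters is given below for the genes furthest above and furthest below the other lines. Each is 300 bases long, 250 before and 50 after the RefSeq start on GRCh38.p14, read 5′ to 3′ on the gene's strand, with every CG in capitals. CD3D (minus strand, chr11:118342656-118342955) and TNFRSF18 (minus strand, chr1:1206543-1206842) have the largest gaps above among genes with 1 start in the table. USP22 (minus strand, chr17:21042962-21043261) and BASP1 (plus strand, chr5:17216573-17216872) are their counterparts below.
CD3D: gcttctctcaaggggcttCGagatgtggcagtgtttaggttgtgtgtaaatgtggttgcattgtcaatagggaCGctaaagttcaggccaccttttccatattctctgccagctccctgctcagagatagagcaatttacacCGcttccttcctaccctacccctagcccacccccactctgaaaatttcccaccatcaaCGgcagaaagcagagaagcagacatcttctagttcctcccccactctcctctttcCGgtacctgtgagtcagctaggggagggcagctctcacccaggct
TNFRSF18: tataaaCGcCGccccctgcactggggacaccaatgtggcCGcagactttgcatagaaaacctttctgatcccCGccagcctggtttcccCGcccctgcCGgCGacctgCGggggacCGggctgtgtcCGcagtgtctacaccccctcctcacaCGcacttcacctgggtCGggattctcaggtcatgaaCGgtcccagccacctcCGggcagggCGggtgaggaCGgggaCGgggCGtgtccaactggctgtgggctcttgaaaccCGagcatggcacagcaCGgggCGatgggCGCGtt
USP22: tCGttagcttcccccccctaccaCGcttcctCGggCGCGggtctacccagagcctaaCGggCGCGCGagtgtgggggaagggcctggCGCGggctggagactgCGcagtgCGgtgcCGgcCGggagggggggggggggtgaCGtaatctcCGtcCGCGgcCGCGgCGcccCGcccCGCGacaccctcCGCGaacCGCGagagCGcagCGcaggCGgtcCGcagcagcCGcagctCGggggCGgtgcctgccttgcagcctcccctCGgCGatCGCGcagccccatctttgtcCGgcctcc
BASP1: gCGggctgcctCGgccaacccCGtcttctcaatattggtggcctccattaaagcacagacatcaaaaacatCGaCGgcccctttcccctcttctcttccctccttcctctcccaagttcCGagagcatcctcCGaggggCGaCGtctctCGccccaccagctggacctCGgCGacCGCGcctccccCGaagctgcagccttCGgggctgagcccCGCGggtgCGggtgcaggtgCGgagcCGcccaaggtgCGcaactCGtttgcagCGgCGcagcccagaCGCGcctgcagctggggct
These sequences hold 5, 23, 41 and 27 CG dinucleotides in the order printed. For a gene with several starts, the counts that follow use the start with the most CG. Among the 20 genes with the largest gaps above, 16 matched a promoter, and their median was 9.5 CG, with 4 promoters (25%) holding at least 20. Among the 20 with the largest gaps below, 16 matched, and their median was 32.5 CG, with 13 promoters (81.2%) holding at least 20. Over the 14425 matched genes, the median was 25 CG, and 63.4% held at least 20. The 753 genes above the other lines, taken whole, had a median of 28 CG (73.4% with at least 20, 624 matched) and the 581 genes below had 27 CG (74.2%, 484 matched). CG reads the same on both strands, and the counts describe sequence alone, with no methylation measured here. These groups of 20 were looked at after values had been seen. Ranking by gap picks genes above that read well under KG-1a in every other line. Below, it picks genes that read well over KG-1a in every other line. The groups thus differ by selection in their level across the other lines. The part of this selection in their CG contrast was not tested. The contrast was not seen between the sets taken whole, at 28 and 27 CG.

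The genes furthest above the other lines in KG-1a began with CD3D, IL32 and TNFRSF18, known from T and NK cells, and those furthest below with GAL, TUBB6 and USP22. Genes of the leukemic stemness signature and T and NK cell markers were called higher more often than lower, while primary granule, monocyte and class II genes were mostly called lower. In KG-1a, 3439 genes (19.0%) were called higher and 3208 (17.7%) were called lower, by limma. Of these, 753 (4.15%) stood apart above and 581 (3.20%) stood apart below. Over the 44988 probe sets, 8329 (18.5%) were called higher and 7307 (16.2%) lower, with 1951 (4.34%) standing apart above and 1226 (2.73%) below. A gap of at least 4-fold to the nearest line was held by 93 genes above and 57 below, and a gap of at least 16-fold by 18 and 13. At the edge of the 2-fold rule, WDR33 (1.003) was just inside above and TPGS2 (0.9994) just outside, while MMUT (-1.002) was just inside below and USP43 (-0.9932) just outside.

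The error behind these calls is the spread of arrays within lines. Where the 7 line means were the units instead, limma called 97 genes higher and 17 lower, and 698 higher and 437 lower had an unadjusted p under 0.05. With 7 lines, an exact permutation test on a single gene cannot give a p below 0.143, so the results below hold for these 7 lines. Leaving out the second KG-1a array lowered the calls to 2452 higher and 2115 lower. The KG-1a arrays correlated at 0.997 across genes. RNA quality by the beta-actin 3′ minus 5′ intensity was 0.085 and 0.073 in KG-1a, against -0.02 to 0.56 in 13 of the other arrays, 1.18 in 1 Kasumi-1 array, and 0.81 and 1.89 in the Sig-M5 arrays. Without Kasumi-1 and Sig-M5, 844 genes stood apart above and 770 below. On the tamibarotene arrays, the actin value was 0.31 to 0.34 in Sig-M5.

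Of the 7 lines, Sig-M5 and OCI-M1 had more genes standing apart above than KG-1a, and Sig-M5 had more below. By the same rule that gave 753 and 581 in KG-1a, Sig-M5 had 1190 above and 1149 below, OCI-M1 had 853 and 555, Kasumi-1 had 665 and 316, NOMO-1 had 578 and 181, OCI-AML3 had 299 and 115, and MV-4-11 had 271 and 153. Over the 18132 genes, which are not independent, KG-1a correlated best with Kasumi-1 (r = 0.923), then MV-4-11 (0.917), OCI-AML3 (0.913), OCI-M1 (0.909), NOMO-1 (0.897) and Sig-M5 (0.876). These values share the array platform and were all high.

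**Figure D1:**
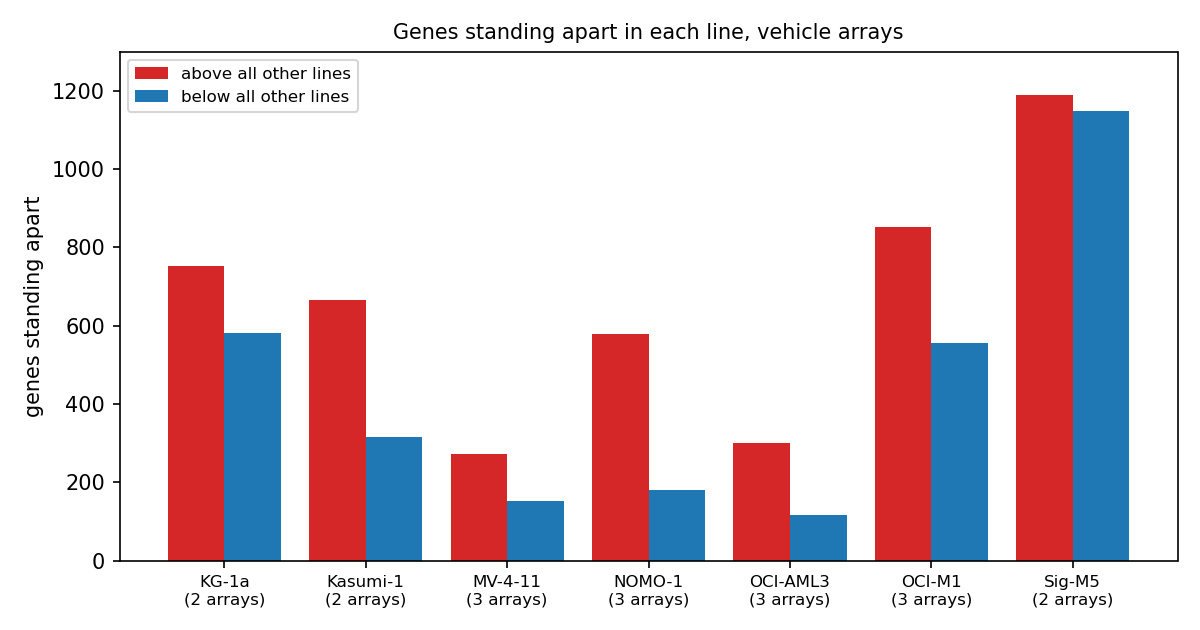
Number of genes standing apart from every other line on the vehicle arrays, above (red bars) and below (blue bars), for each of the 7 AML lines, with the number of arrays under each name. KG-1a has 753 above and 581 below, and Sig-M5 has the most in both directions, 1190 and 1149.

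CD3D, the delta chain of the T cell receptor's CD3 complex, had the largest gap of all genes above. It read 12.30 and 12.22 in KG-1a, against 3.01 to 3.75 (median 3.44) over the other 16 arrays. The other lines thus sat together at the bottom of the scale, 8.85 ± 0.14 (SE) below KG-1a, a 463-fold difference (limma, adjusted p = 5.91e-16), and the gene's second probe set differed by 6.72. IL32, a cytokine known from T and NK cells, read 11.64 and 11.82 in KG-1a, against 4.74 to 5.46 elsewhere, a 106-fold difference (6.73 ± 0.12). TNFRSF18, the costimulatory receptor GITR, read 10.38 and 10.47 in KG-1a, against 3.31 to 4.25 elsewhere, a 96.5-fold difference (6.59 ± 0.13). That none of these 3 genes overlapped between KG-1a and any other array follows from the rule for standing apart.

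More of the 20 largest gaps above belonged to lymphoid genes. SLA2, a Src-like adaptor of antigen receptor signaling, read 12.002 and 11.993 in KG-1a, against 4.19 to 8.23 elsewhere, with Kasumi-1 the next line at 7.98. CTSW, the protease cathepsin W of cytotoxic lymphocytes, read 10.20 and 10.26 in KG-1a, against 4.76 to 6.11 elsewhere. ZAP70, the kinase that binds phosphorylated CD3 chains, read 8.97 and 9.01 in KG-1a, against 4.85 to 5.52 elsewhere (3.84 ± 0.14, 14.3-fold). IGHM, the immunoglobulin mu heavy chain, read 11.13 and 11.02 in KG-1a, against 5.0 to 6.28 elsewhere.

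Other genes of the upper group have roles outside lymphocytes. HOPX, an atypical homeodomain protein that does not bind DNA, read 11.88 and 11.89 in KG-1a, against 3.29 to 6.65 elsewhere, a 160-fold difference, with NOMO-1 the next line at 6.32. FAM30A, a long noncoding RNA of the stemness signature described below, read 11.27 and 11.38 in KG-1a, against 3.70 to 6.09 elsewhere. HPGDS, which makes prostaglandin D2, read 10.02 and 10.07 in KG-1a, against 3.92 to 5.38 elsewhere, while its second probe set differed by 2.13. Secreted or matrix-facing products included HGF, the hepatocyte growth factor (9.65 and 9.55 in KG-1a, against 3.55 to 5.71), and HHIP, which binds hedgehog ligands (7.83 and 7.42 in KG-1a, against 2.72 to 3.16). CPA3, the mast cell carboxypeptidase, read 7.03 and 6.82 in KG-1a, against 2.51 to 2.91 elsewhere. The remaining 7 were PRR5L, a partner of the mTORC2 kinase complex, SLC8A3, a sodium-calcium exchanger, STAB1, a scavenger receptor, LHX8, a LIM homeobox factor, LCT, or lactase, RERGL and NETO1. Their differences ran from 3.98 (LCT) to 6.08 (PRR5L), and KG-1a lay outside the other 16 arrays for each, as the rule requires. Beside these, ITM2A, a membrane protein known from thymocytes, and GAD1, which makes the transmitter GABA, were among the 10 largest differences above. ITM2A read 12.44 and 12.39 in KG-1a, against 2.86 to 9.82 elsewhere, and GAD1 read 10.17 and 10.11 in KG-1a, against 2.74 to 6.73 elsewhere.

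GAL, the neuropeptide galanin, had the largest gap below. It read 3.20 and 2.86 in KG-1a, against 9.70 to 12.69 (median 11.00) over the other 16 arrays. All other lines were high, and KG-1a lay 8.02 ± 0.10 lower, a 259-fold difference (limma, adjusted p = 9.30e-17), with the second probe set at -5.70. TUBB6, a beta tubulin, read 4.48 and 4.76 in KG-1a, against 10.76 to 12.39 elsewhere, although its other probe sets differed by -2.90 to -0.07. USP22, the deubiquitinase of the SAGA coactivator, read 3.93 and 2.93 in KG-1a, against 8.92 to 10.78 elsewhere, and its other probe sets ranged from -6.79 to -0.90.

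Several genes with large gaps below act in myeloid or lymphoid signaling. CEBPD, a C/EBP transcription factor of myeloid differentiation, read 4.25 and 4.49 in KG-1a, against 9.93 to 11.22 elsewhere, a 72.5-fold difference. BTK, the Bruton tyrosine kinase downstream of antigen and Toll-like receptors, read 3.80 and 4.06 in KG-1a, against 8.54 to 10.21 elsewhere, a 47.4-fold difference. TOB1, an antiproliferative protein, read 2.68 and 2.37 in KG-1a, against 7.60 to 10.59 elsewhere. KG-1a was thus the only one of the 7 lines with low intensity on these 3 probe sets.

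CST3, the protease inhibitor cystatin C, read 4.49 and 4.52 in KG-1a, against 9.17 to 11.83 elsewhere. BASP1, a membrane-bound growth-cone protein, read 3.67 and 4.28 in KG-1a, against 8.70 to 12.92 elsewhere, highest in OCI-AML3. CTNNA1, the adhesion protein alpha-catenin, read 5.02 and 3.93 in KG-1a, against 7.92 to 9.93 elsewhere, and its other probe sets ranged from -5.97 to -0.22. The remaining 11 of the 20 were RIOX1, SIMC1, BTBD6, HSD17B8, LDLRAD3, KCNE3, NXF3, RAB20, NIPSNAP1, PBDC1 and CNN2, with differences of -6.20 (SIMC1) to -4.21 (NIPSNAP1). The second probe set of SIMC1 differed by -1.83, and the other probe sets of NXF3 by -4.92 and 0.06.

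**Figure D2:**
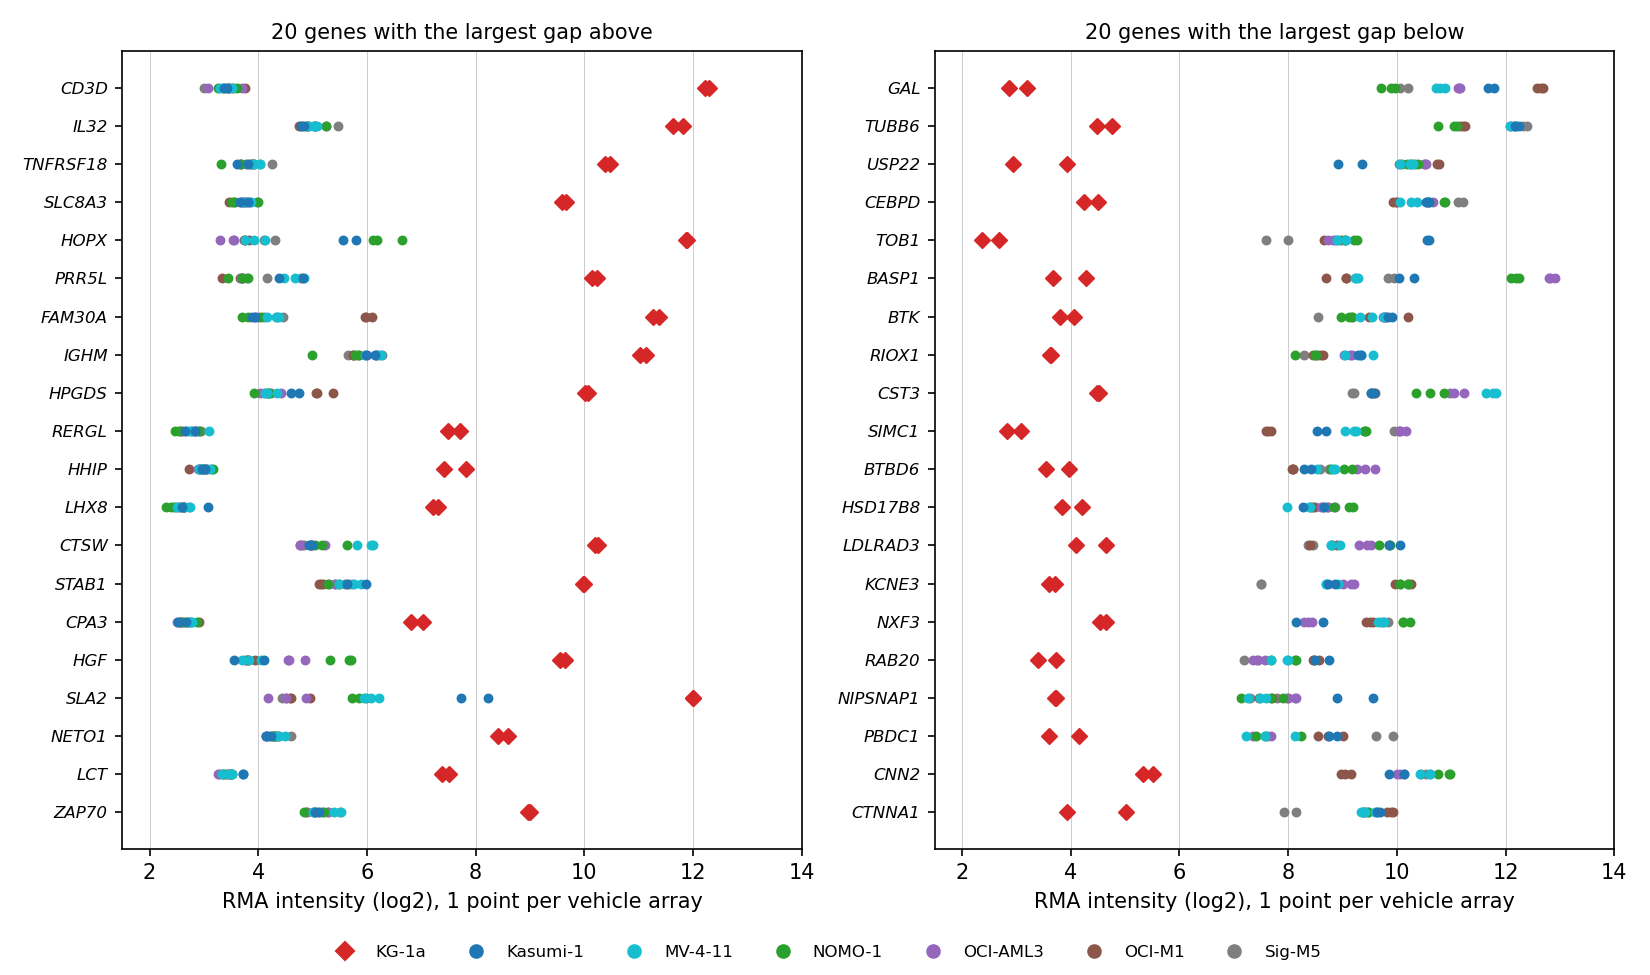
RMA intensity (log2, horizontal axis) of the 20 genes with the largest gap above (left) and the 20 with the largest gap below (right), with 1 point per vehicle array. KG-1a arrays are red diamonds and the other 6 lines are coloured circles. By the rule for standing apart, the KG-1a diamonds lie outside all 16 other points in every row. Examples are CD3D (12.30 and 12.22) and GAL (3.20 and 2.86).

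Stem-cell transcripts of the published 17-gene leukemic stemness signature were mostly higher in KG-1a. Of its 17 genes, all measured, 11 were called higher and 1 lower (64.7% and 5.88%, against 19.0% and 17.7% of all genes). Standing apart above were 9 (52.9%, against 4.15% of all genes), and the median difference was 1.73, against 0.0061 over all genes. SMIM24 read 11.85 and 11.86 in KG-1a, against 4.56 to 9.05 elsewhere, with Kasumi-1 the next line at 9.03. CD34, the progenitor surface sialomucin, read 9.68 and 9.67 in KG-1a, against 4.66 to 8.43 elsewhere, a 17.7-fold difference (4.15 ± 0.23, limma adjusted p = 5.86e-10), and Kasumi-1 was again next at 7.70. DNMT3B, a de novo DNA methyltransferase, read 10.45 and 10.65 in KG-1a, against 6.48 to 8.0 elsewhere, while its other probe sets ranged from 0.22 to 3.93.

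The other signature genes standing apart were CPXM1 (3.99), ARHGAP22 (3.77), LAPTM4B (1.86), MMRN1 (1.73) and NYNRIN (1.21), given as log2 differences. AKR1C3 and EMP1 were called higher, but OCI-M1 (9.77) and NOMO-1 (5.27) exceeded KG-1a. BEX3 went the other way, at 3.52 and 3.00 in KG-1a, against 2.96 to 12.01 elsewhere, with Kasumi-1 as low at 3.17. ZBTB46, DPYSL3, CDK6, SOCS2 and ADGRG1 were not called, with differences of -0.02 to 0.24. With line means as units, 3 of the 17 were called higher.

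Of 23 stem and progenitor surface antigens, 13 were called higher and 5 lower (56.5% and 21.7%, against 19.0% and 17.7% of all genes). Their median was 0.44. Beside CD34, those standing apart above were ITGA6, the laminin receptor subunit CD49f (8.09 and 8.24 in KG-1a, against 2.70 to 6.48), ANPEP, or CD13 (10.20 and 10.20 in KG-1a, against 5.05 to 8.39), CD244 (2.94) and CD96 (2.77). KIT, the stem cell factor receptor, read 2.88 and 2.54 in KG-1a, against 2.53 to 10.87 elsewhere. FLT3, the receptor mutated in many AMLs, read 3.83 and 3.68 in KG-1a, against 3.95 to 10.23 elsewhere. FLT3 thus lay below every other array, but the lowest of these (3.95) was close to KG-1a and near the low end of the scale. KIT in KG-1a overlapped Sig-M5 (mean 2.69). CD38, which is low on the most immature CD34-positive cells, was called lower (-1.30) but was lower still in OCI-M1. PROM1, THY1, HAVCR2 and ENG were not called.

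Among 27 stem and progenitor transcription factors, 10 were called higher and 7 lower (37.0% and 25.9%, against 19.0% and 17.7% of all genes). Their median was 0.08. GFI1B, a repressor of erythroid and megakaryocytic cells, read 9.88 and 9.83 in KG-1a, against 4.08 to 10.02 elsewhere. GATA2 read 10.99 and 10.95 in KG-1a, against 5.32 to 11.42 elsewhere. TAL1, a basic helix-loop-helix partner of GATA factors, read 7.52 and 7.50 in KG-1a, against 3.41 to 8.89 elsewhere. For all 3 genes, KG-1a shared its high level with OCI-M1, whose means were 9.98, 11.16 and 8.72. BCL11A (2.21) and MYCN (1.34) stood apart above. SPI1, the myeloid factor PU.1, stood apart below (4.65 and 5.05 in KG-1a, against 5.17 to 6.91), as did MYB (-1.30), while IRF8, a monocyte and dendritic cell factor, read 4.83 and 3.88 in KG-1a, against 3.43 to 12.84 elsewhere, with OCI-M1 as low.

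Of the 12 measured HOX genes and cofactors, 4 were called higher and 5 lower (33.3% and 41.7%, against 19.0% and 17.7% of all genes). HOXB2 had the largest difference of the 12. It read 10.73 and 10.80 in KG-1a, against 2.99 to 9.58 elsewhere, with OCI-M1 the next line at 9.43. MEIS2 also stood apart above (7.75 and 7.85 in KG-1a, against 3.30 to 6.91). MEIS1, a HOX cofactor of many leukemias, was called lower (-1.72), and HOXB4, HOXB6, HOXB7 and HOXB9 were called lower (-1.21 to -0.72). The other 10 listed genes were not analysed here.

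T and NK cell genes were higher in part. Of 36 measured, 17 were called higher and 1 lower (47.2% and 2.78%, against 19.0% and 17.7% of all genes). Of these 36, 9 stood apart above (25%, against 4.15% of all genes) and none below, and the median was 0.30. Beside CD3D and ZAP70, those standing apart were LEF1, a Wnt pathway factor of early T cells (10.09 and 9.92 in KG-1a, against 2.81 to 9.08, with OCI-M1 next), GATA3, the T lineage factor (8.46 and 7.74 in KG-1a, against 4.35 to 5.96), and PRF1, or perforin (8.24 and 8.27 in KG-1a, against 4.80 to 5.36). The others were IL2RB (1.85), CD247 (1.60), TBX21 (1.35) and EOMES (1.18).

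Of the 36 T and NK cell genes, 18 were not called. CD3E and CD3G, other chains of the same complex, differed by 0.11 and -0.05 and were not called, although a second probe set of CD3E differed by 1.06. CD2, CD5, CD6, LCK, BCL11B, CD8A, RAG1, RAG2 and DNTT, which mark T cells or their precursors, did not pass either, at -0.07 (RAG1) to 0.31 (CD8A). GZMA, a granule protease, was called higher (4.07), but NOMO-1 (9.89) exceeded the KG-1a arrays (8.88 and 9.02). CD4 was called lower (-1.53). With line means as units, 5 of the 36 were called higher and none lower. Of 16 B cell markers, 2 were called higher and 3 lower (12.5% and 18.75%, against 19.0% and 17.7% of all genes). IGLL1 (2.91) and BANK1 (2.21) stood apart above, and EBF1, BLNK and CR2 were called lower (-0.42, -0.74 and -0.62). CD79A, MS4A1, PAX5 and POU2AF1 were not called.

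Primary granule and monocyte genes were mostly lower in KG-1a. Of 12 primary granule genes, 11 were called lower and 1 higher (91.7% and 8.33%, against 17.7% and 19.0% of all genes). The median was -4.59. ELANE, neutrophil elastase, read 4.54 and 4.52 in KG-1a, against 4.25 to 13.32 elsewhere. PRTN3, proteinase 3, read 3.84 and 3.55 in KG-1a, against 4.76 to 12.92 elsewhere. MPO, myeloperoxidase, read 4.81 and 4.99 in KG-1a, against 3.75 to 13.94 elsewhere. OCI-M1 was also low for all 3 genes (4.65, 4.89 and 4.03), so that PRTN3 and CFD were the members standing apart below. Without OCI-M1, 5 of the 12 stood apart below, and 5 also did without Kasumi-1. PRSS57, a further granule protease, was called higher at 12.07 and 12.13 in KG-1a, within the range of the others (5.25 to 12.92).

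Of 24 monocyte and macrophage markers, 18 were called lower and 1 higher (75% and 4.17%, against 17.7% and 19.0% of all genes). The median was -1.24, and KG-1a was the lowest line for 8 of the 24. With line means taken off the log2 scale and summed over the list, KG-1a gave 529.4, Kasumi-1 1911 and OCI-M1 2130. The remaining lines gave 11280 (OCI-AML3) to 45430 (NOMO-1). LYZ, or lysozyme, differed between the KG-1a arrays, at 6.54 and 3.75, and both were below the other arrays, at 7.83 to 13.74. CD68, a lysosomal glycoprotein, read 5.13 and 5.21 in KG-1a, against 7.04 to 10.87 elsewhere. FCGR1A and KLF4 also stood apart below (-4.39 and -3.04), although the other 2 probe sets of FCGR1A differed by -0.22 and -0.18. S100A8 and S100A9 were called lower (-4.68 and -4.19), with OCI-M1 lower still. MSR1 was called higher by 0.40 within the range of the others, and CD163, ITGAX, CLEC7A, CD300E and MRC1 were not called. Without OCI-M1, 8 of the 24 stood apart below, against 4 with it.

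Of 6 phagocyte oxidase and lysozyme genes measured, 4 were called lower and 2 higher (66.7% and 33.3%, against 17.7% and 19.0% of all genes). NCF4, the oxidase's p40 subunit, read 4.63 and 4.53 in KG-1a, against 7.43 to 11.05 elsewhere, and CYBB, its catalytic subunit, read 3.76 and 3.63 in KG-1a, against 3.92 to 10.49. Among 22 S100 proteins and annexins, 13 were called lower and 5 higher (59.1% and 22.7%, against 17.7% and 19.0% of all genes). S100A4, ANXA4 and S100A13 stood apart below (-3.71, -2.02 and -1.33), while S100Z stood apart above (6.85 and 6.81 in KG-1a, against 2.69 to 6.29). VIM, the intermediate filament vimentin, was among the 10 largest differences below at 5.08 and 3.46 in KG-1a, against 3.10 to 13.32 elsewhere, and Kasumi-1 was low as well (3.12).

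Of 17 genes of MHC class II presentation, 12 were called lower and 1 higher (70.6% and 5.88%, against 17.7% and 19.0% of all genes). The median was -1.48, and KG-1a was the lowest line for 5 of the 17. With line means taken off the log2 scale and summed over the list, KG-1a gave 1948 and Sig-M5 1845. OCI-AML3 gave 2671, Kasumi-1 3128 and MV-4-11 4829, while OCI-M1 gave 22310 and NOMO-1 33100. The low level was thus shared with other lines. CD74, the invariant chain, read 5.61 and 5.09 in KG-1a, against 7.01 to 10.97 elsewhere. HLA-DMA, the peptide loading chain, read 3.00 and 3.06 in KG-1a, against 3.39 to 10.67 elsewhere, so the lowest other array was also at the low end of the scale. HLA-DRB1 (-2.69) and CTSS, or cathepsin S (-3.28), also stood apart below. HLA-DRA read 3.53 and 4.28 in KG-1a, against 3.86 to 13.57 elsewhere, with OCI-AML3 as low. CIITA, the class II master regulator, was not called (0.03). Probe sets of HLA genes can cross-hybridise between near-identical family members. Of 17 class I genes, 7 were called higher and 3 lower (41.2% and 17.6%, against 19.0% and 17.7% of all genes). TAP1, the peptide transporter, read 10.76 and 10.78 in KG-1a, against 5.80 to 11.45 elsewhere. The class I members standing apart were both below, PSMB10, an immunoproteasome subunit (9.71 and 9.68 in KG-1a, against 10.01 to 11.56), and ERAP1, a peptide-trimming protease (6.15 and 6.04 in KG-1a, against 6.36 to 7.96). HLA-F was called lower (-2.86), with Kasumi-1 as low. With line means as units, no primary granule, monocyte or class II gene was called in either direction.

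**Figure D3:**
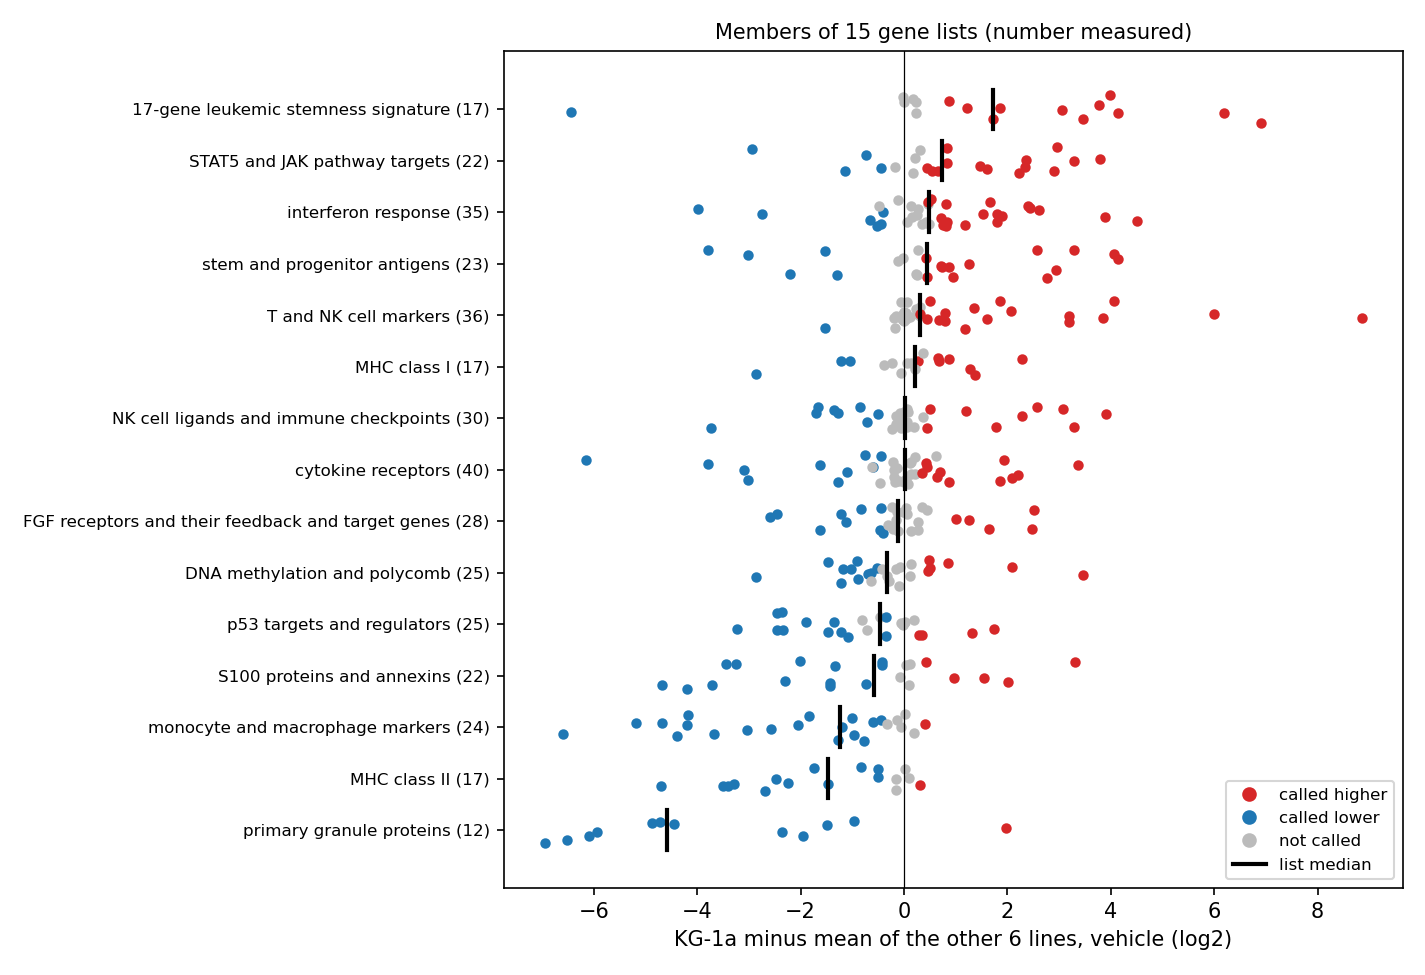
Log2 difference of each measured gene (KG-1a minus the mean of the other 6 lines, horizontal axis) in 15 gene lists, ordered by median (black tick), with the number measured in brackets. Red points were called higher, blue points lower and grey points not called. The stemness signature has the highest median (1.73) and the primary granule list the lowest (-4.59).

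FGFR1, the partner of the fusion in KG-1 cells, read 10.04 and 10.02 in KG-1a, against 5.78 to 9.25 elsewhere, with Kasumi-1 the next line at 9.01. The difference was 2.47 ± 0.15 (5.53-fold, limma adjusted p = 3.08e-09), but the gene's other probe sets ranged from -0.41 to 2.54. FGFR1OP2, the other partner, was called lower (-0.42). Of 28 FGF receptors and known feedback and target genes, 5 were called higher and 9 lower. These shares were 17.9% and 32.1%, against 19.0% and 17.7% of all genes, so the share called higher was near that of all genes. SPRY1, a feedback inhibitor, read 9.01 and 8.97 in KG-1a, against 5.13 to 7.90 elsewhere. DUSP6, a phosphatase of ERK, was called higher (1.64). EGR1, an immediate early target, stood apart below by a narrow margin (4.79 and 4.84 in KG-1a, against 4.86 to 9.71). CCND1 also stood apart below (-2.46).

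Of 22 JAK and STAT5 pathway genes, 14 were called higher and 4 lower (63.6% and 18.2%, against 19.0% and 17.7% of all genes). Their median was 0.74. STAT4, which relays interleukin-12 signals in T and NK cells, read 7.80 and 7.60 in KG-1a, against 3.50 to 4.24 elsewhere. OSM, the cytokine oncostatin M and a STAT5 target, read 8.60 and 8.55 in KG-1a, against 4.27 to 7.84 elsewhere, and CISH, a feedback inhibitor, stood apart above (1.48). PIM1 (2.36), SOCS1 (2.34) and STAT5A (2.22) were called higher, with OCI-M1 above KG-1a for each. STAT6, the interleukin-4 relay, stood apart below (6.52 and 6.49 in KG-1a, against 8.46 to 10.33).

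Of 40 cytokine receptors, 11 were called higher and 10 lower (27.5% and 25%, against 19.0% and 17.7% of all genes), with a median of 0.01. IL18RAP, the accessory chain of the interleukin-18 receptor, read 8.60 and 8.55 in KG-1a, against 4.22 to 7.03 elsewhere. CSF2RB, the beta chain shared by the receptors for interleukin-3, interleukin-5 and GM-CSF, read 3.13 and 2.68 in KG-1a, against 5.95 to 11.79 elsewhere, a 71.6-fold difference, with its other probe sets at -3.37 to -0.54. IL3RA, the alpha chain for interleukin-3, was called higher (0.87). CXCR4, the marrow homing receptor, read 5.43 and 5.52 in KG-1a, against 5.17 to 11.75 elsewhere, with OCI-M1 as low. The chemokines CXCL8 (-4.06) and CCL5 (-3.56) stood apart below, and CXCL2 (1.47) above.

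Of 30 ligands seen by lymphocytes, 9 were called higher and 8 lower (30% and 26.7%, against 19.0% and 17.7% of all genes), with a median of 0.03. TNFSF4, the ligand OX40L, read 7.23 and 7.13 in KG-1a, against 2.88 to 3.64 elsewhere. NECTIN2, a ligand of the NK receptor DNAM-1, read 10.82 and 10.95 in KG-1a, against 5.49 to 9.80 elsewhere, and NECTIN1 stood apart above as well (3.07). ULBP2 and ULBP3, ligands of NKG2D, stood apart above (1.78 and 1.21), although the other probe sets of ULBP2 differed by -0.02 and 0.01. CD70 was called lower (-3.73).

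Among 18 genes of selectin ligand synthesis, 8 were called higher and 7 lower (44.4% and 38.9%, against 19.0% and 17.7% of all genes). CHST2, a sulfotransferase, read 9.24 and 9.22 in KG-1a, against 4.0 to 8.14 elsewhere. ST3GAL4, a sialyltransferase of sialyl Lewis x, read 10.22 and 10.14 in KG-1a, against 7.63 to 8.72 elsewhere. FUT7, the fucosyltransferase of the same structure, read 9.41 and 9.41 in KG-1a, within the range of the others (3.90 to 9.54). CD44, the core protein of the E-selectin ligand studied in KG-1a, was called higher by 0.64, and GCNT1 stood apart below (-1.94).

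Of 25 measured p53 targets and regulators, 12 were called lower and 4 higher (48% and 16%, against 17.7% and 19.0% of all genes). Standing apart below were 7 (28%, against 3.20% of all genes). BBC3, which encodes PUMA, read 5.32 and 5.55 in KG-1a, against 5.57 to 8.75 elsewhere, so its margin to the nearest array was narrow. TNFRSF10B, a TRAIL receptor, read 6.96 and 6.76 in KG-1a, against 8.0 to 10.29 elsewhere. CDKN1A, which encodes p21, was called lower (6.11 and 6.38 in KG-1a, against 5.91 to 10.58), but Kasumi-1 was as low. ZMAT3 was called higher (1.74), and MDM2, BAX, FAS and GDF15 were not called. Sig-M5 had the highest mean for TNFRSF10B and CDKN1A.

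The de novo DNA methyltransferases lay on opposite sides. DNMT3A read 4.90 and 4.91 in KG-1a, against 6.77 to 9.83 elsewhere, and was the only one of 25 DNA methylation and polycomb genes standing apart below, although its other probe sets ranged from -2.83 to 0.41. DNMT3B, given above, was the only one standing apart above. In all, 6 of these 25 genes were called higher and 10 lower (24% and 40%, against 19.0% and 17.7% of all genes).

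Interferon response genes were called higher in 18 and lower in 6 of 35 cases (51.4% and 17.1%, against 19.0% and 17.7% of all genes). Their median was 0.48. KG-1a was the highest line for 6 of the 35, and 3 stood apart above (8.57%, against 4.15% of all genes). With line means taken off the log2 scale and summed over the list, OCI-M1 gave 35630, more than KG-1a at 28430. The remaining lines gave 5164 (Sig-M5) to 18120 (MV-4-11). RSAD2, or viperin, read 9.83 and 9.40 in KG-1a, against 4.04 to 8.72 elsewhere, with OCI-M1 the next line at 8.62. SAMHD1, a nucleotide hydrolase that inactivates cytarabine triphosphate, read 3.82 and 3.59 in KG-1a, against 5.14 to 11.03 elsewhere, a 15.8-fold difference. MX2 also stood apart below (-2.74). IFIT1, IFIT2, IFIT3 and OAS1 were not called, with differences of 0.14 to 0.43.

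Of 21 BCL2 family genes, 5 were called higher and 6 lower (23.8% and 28.6%, against 19.0% and 17.7% of all genes). BAD, a BH3-only protein, stood apart above (9.87 and 9.92 in KG-1a, against 7.12 to 8.58). MCL1 and BBC3 stood apart below (-1.26 and -2.35), and BCL2 was not called (-0.15). Of 31 drug transporters and detoxifying enzymes, 7 were called higher and 14 lower (22.6% and 45.2%, against 19.0% and 17.7% of all genes). ABCG1 stood apart above (1.39), and SAMHD1, ALDH3B1, GSTM3 and MVP below (-3.98, -3.51, -3.24 and -2.0). The efflux pumps ABCB1 and ABCG2 were not called (0.06 and -0.09). Of 23 retinoid genes, CYP26A1, the retinoic acid hydroxylase, read 5.04 and 4.96 in KG-1a, against 2.68 to 3.78 elsewhere, and STRA6, the retinol-binding protein receptor, stood apart above (1.56). RARA, the receptor that tamibarotene binds, was called lower (-0.47), at 7.58 and 7.64 in KG-1a, against 6.83 to 9.36 elsewhere.

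Genes standing apart lay together in parts of several chromosomes, in a grouping chosen after values had been seen. The 8051 autosomal genes with a mean intensity of at least 6 were put in RefSeq order and divided into 200 blocks of about 40 neighbours. In KG-1a, 13 blocks had a median difference of at least 0.5 and 14 of at most -0.5. The 13 higher blocks held 514 genes, of which 142 (27.6%) stood apart above and 10 (1.95%) below, against 5.97% and 5.94% of all genes placed. The 14 lower blocks held 558 genes, of which 5 (0.896%) stood apart above and 138 (24.7%) below. These shares describe blocks chosen on the same values.

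The longest stretches of neighbouring blocks past 0.5 in either direction lay on chromosomes 11, 5 and 7. On chromosome 11, the 160 genes from PTPMT1 to LRFN4 had a median difference of 0.92, with 141 positive and 68 standing apart above. The 120 genes from PRCP to ST14, on the same chromosome, had a median of 0.71, with 110 positive. On chromosome 5, the 160 genes from TENT2 to HMMR had a median of -0.83, with 138 negative and 53 standing apart below. On chromosome 7, the 120 genes from PMS2P5 to NDUFA5 had a median of -0.79, with 104 negative. Each of the other lines, set against the remaining 6 in the same way, had a median between -0.41 (Sig-M5) and 0.06 (MV-4-11) for the first of these stretches and between 0.01 (OCI-AML3) and 0.29 (Kasumi-1) for the one on chromosome 5. For PRCP to ST14 the other lines lay between -0.44 (Sig-M5) and 0.28 (OCI-M1), and for the chromosome 7 stretch between -0.43 (Sig-M5) and 0.46 (OCI-AML3). All of these stretches were chosen on KG-1a's own values, so its place among the lines in them is fixed by the choice.

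Neighbours also stood apart in unbroken runs. The longest run above was of 6 consecutive genes, CYB561A3, TMEM138, TMEM216, CPSF7, SDHAF2 and SAXO4, with differences of 1.03 to 1.5. The longest runs below were of 4, and were EGR1, ETF1, HSPA9 and CTNNA1 (-2.60, -2.01, -1.26 and -4.85) and USP22, DHRS7B, NATD1 and MAP2K3 (-6.71, -3.36, -3.12 and -2.68). In all, 134 of the 753 genes above lay in 61 runs and 99 of the 581 below in 45. With 4.15% of all genes above and 3.20% below, some neighbours would fall together without any grouping. How many would do so was not computed.

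Shorter lower stretches included the 40 genes from SMARCA5 to ACSL1 on chromosome 4 (median -0.81) and the 80 from TARBP2 to RAP1B on chromosome 12 (-0.68). Others lay on chromosomes 1, 5 and 17, at -0.62 to -0.54. Higher ones lay on chromosomes 14 and 19, at 0.51 to 0.61. Such blocks were found in every line, and Sig-M5 had 6 blocks up and 23 down, OCI-M1 12 and 13, Kasumi-1 12 and 8, NOMO-1 4 and 4, OCI-AML3 5 and 1, and MV-4-11 1 and 0. On the tamibarotene arrays, the medians of the 4 longest stretches were 0.76, 0.81, -0.75 and -0.73 in the same order.

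**Figure D4:**
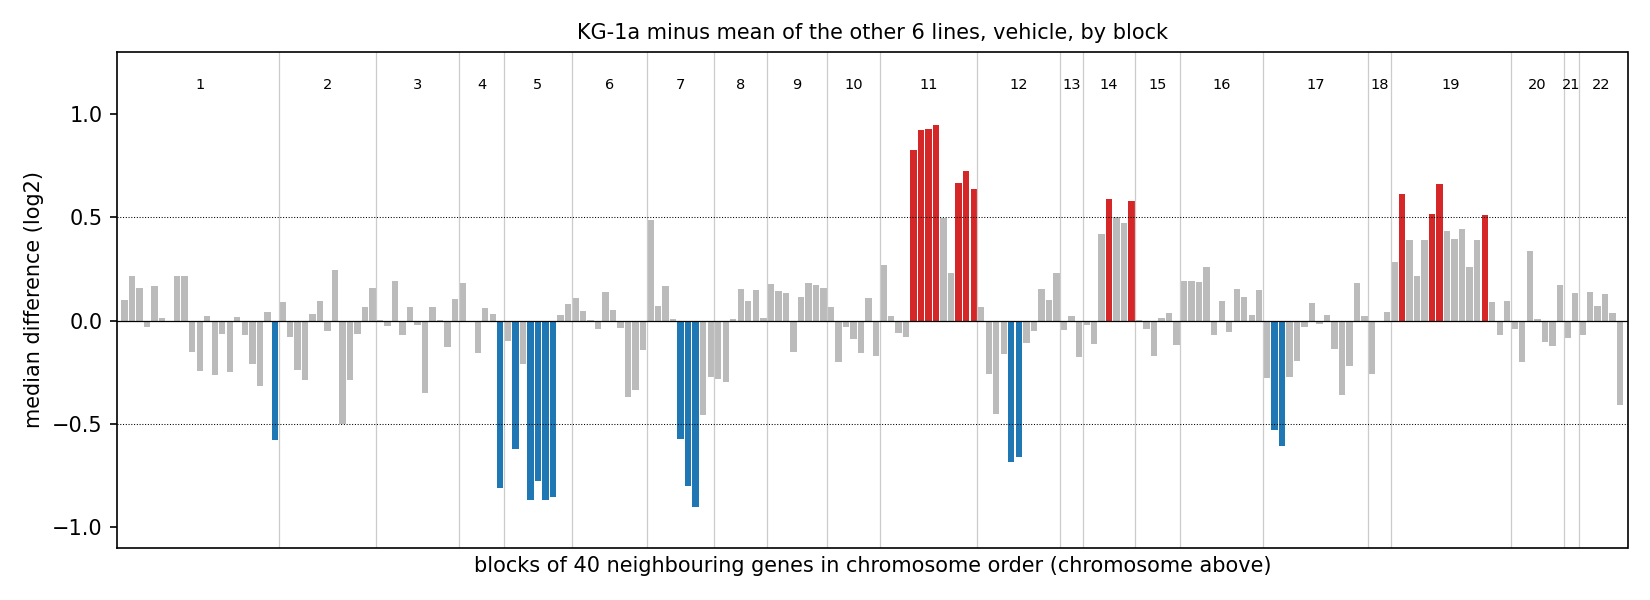
Median log2 difference (KG-1a minus the mean of the other 6 lines, vertical axis) of 200 blocks of about 40 neighbouring genes in chromosome order, with chromosome names above. Red bars are at least 0.5 and blue bars at most -0.5, which dotted lines mark. Runs of red bars lie on chromosome 11 and runs of blue bars on chromosomes 5 and 7.

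The tamibarotene arrays, which are other samples of the same lines, gave a second measurement of the line differences. On them 738 genes (4.07%) stood apart above and 447 (2.47%) below. In KG-1a, 557 genes stood apart above in both arms, which is 75.5% of the tamibarotene list and 74.0% of the vehicle list. Below, 331 were shared, which is 74.1% of the tamibarotene list and 57.0% of the vehicle list. Of the 753 vehicle genes above, 751 had a positive difference on the tamibarotene arrays, and all 581 below had a negative one. CD3D differed by 8.43 there and GAL by -7.70.

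In 782 genes (4.31%), the line difference was not the same in both arms (limma interaction, adjusted p under 0.05), and in 158 (0.871%) by at least 1. RNA quality differed between the arms too. The actin value in Sig-M5 was 0.81 and 1.89 on vehicle and 0.31 to 0.34 on tamibarotene. In Kasumi-1 it was 1.18 in 1 vehicle array and 0.20 to 0.22 on tamibarotene. The part of RNA quality in the interaction was not tested. ITGA6, in KG-1a, differed by 1.38 on tamibarotene and by 4.06 on vehicle. CYP26A1 differed by -0.41 on tamibarotene, where it did not stand apart, and by 1.86 on vehicle. GATA2 differed by 4.71 on tamibarotene and by 3.06 on vehicle.

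**Figure D5:**
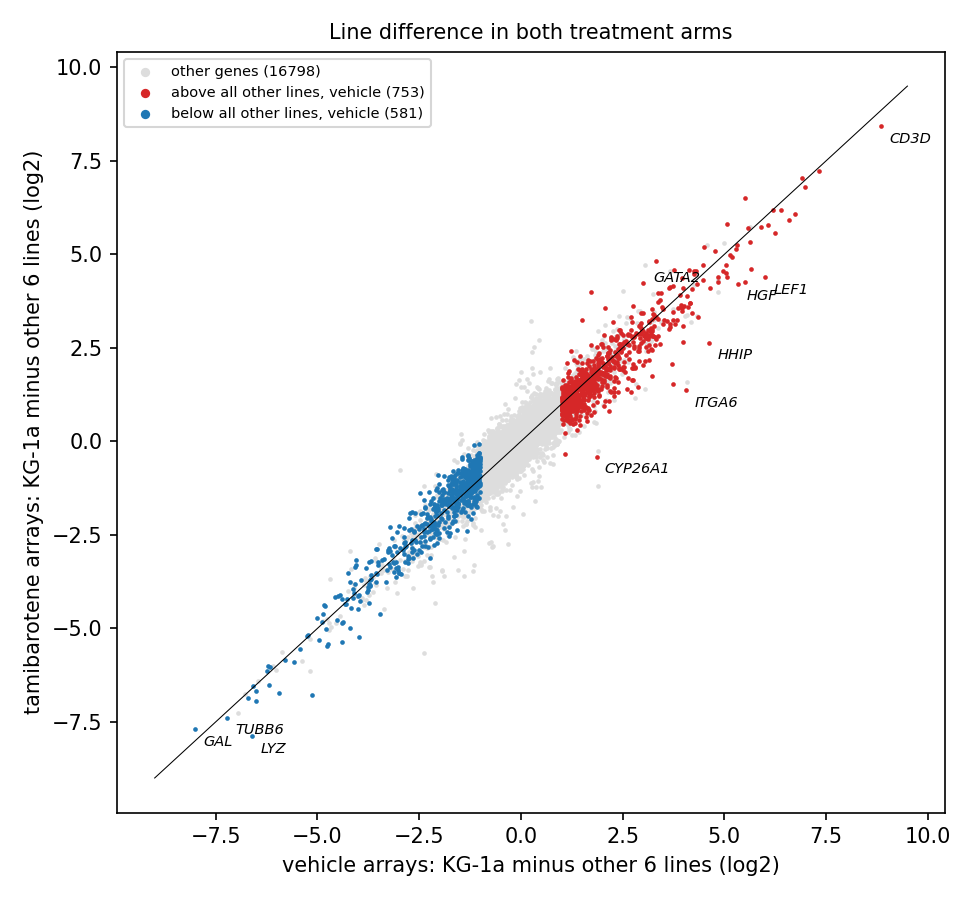
Log2 difference of each of 18132 genes (KG-1a minus the mean of the other 6 lines) on vehicle arrays (horizontal axis) and on tamibarotene arrays (vertical axis), with the line of equality. Red points stood apart above and blue points below on vehicle. CD3D lies at 8.43 on tamibarotene and 8.85 on vehicle, while CYP26A1 lies at -0.41 on tamibarotene and 1.86 on vehicle.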

How the data were processed

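The deposited values are log2 intensities that the authors made with the affy package and RMA, per the submitters' processing notes, and no version or genome build is given in the sources used here. They were used as deposited, without further normalization. All values came from 1 table of 39 arrays. Gene symbols came from GEO's platform annotation. Of 49395 probe sets, 44988 had 1 symbol, 1832 several and 2473 none, and 102 were controls. Probe sets with 1 symbol were fitted with limma 3.58.1 (lmFit and eBayes) in R 4.3.3 on the 18 vehicle arrays, with a mean for each line and 11 residual degrees of freedom, and p-values were adjusted over all 44988. Of 18132 genes, 11734 had several probe sets. Figures were drawn with matplotlib 3.10.9.

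Genes are named where they hold 1 of the 20 largest gaps or 10 largest differences in a direction, or belong to 1 of 38 gene lists (838 of 917 entries measured), and others were chosen after their values were seen. The members and lists were chosen with earlier results of these data known. Replicate numbers did not pair the arrays: deviations of arrays with the same number in different lines correlated at -0.73 to 0.73 (median -0.0039, 46 pairs). On simulated data, each probe set had the same mean in all lines, except for known KG-1a changes in 50 probe sets per size. The fit recovered 50, 41, 37 and 50 of them at log2 changes of -2, -1, 1 and 2, and made 15 false calls. The real lines differ from each other in many more genes, so these rates need not hold for them.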

Additional observations from a re-analysis of the deposited data

Results flagged for a closer look

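For 13 named genes, the KG-1a difference on the tamibarotene arrays departed from that on the vehicle arrays by at least 1 on the log2 scale (limma interaction, adjusted p under 0.05). Values below are the difference on tamibarotene minus that on vehicle. CYP26A1, a direct retinoid target, changed by -2.27 ± 0.18 (SE, adjusted p = 3.38e-10), with a difference of -0.41 on tamibarotene set against 1.86 on vehicle. ITGA6 changed by -2.68, HHIP by -1.99, AKR1C3 by -1.65, LEF1 by -1.61, CPXM1 by -1.34 and HGF by -1.12, so these 6 genes, all higher in KG-1a on vehicle, were less so on tamibarotene. GATA2 changed by 1.65, with a difference of 4.71 on tamibarotene set against 3.06 on vehicle. CD38 changed by 1.13 and S100A9 by 1.27, while LYZ changed by -1.28 (adjusted p = 0.0488) and SAMHD1 by -1.26. BCL2 changed by 1.303, with 1.15 on tamibarotene set against -0.15 on vehicle. LYZ also differed between the vehicle arrays of KG-1a, at 6.54 and 3.75. RNA quality differed between the arms in Sig-M5 and Kasumi-1, as given above, and its part in these changes was not tested.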

How the results depend on the processing

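The number of arrays and the low end of the intensity scale limit precision. With line means as the units, 97 genes were called higher and 17 lower, and the counts standing apart were also 97 and 17. Of 229 genes named in the text, 144 were no longer called under it. The differences themselves are the same by construction. Calls at least 2-fold different numbered 1172 higher and 1266 lower, and genes standing apart by at least 4-fold numbered 282 above and 214 below. Leaving out 1 array at a time gave 2452 to 3561 genes higher, 2115 to 3371 lower, 752 to 799 above and 573 to 677 below, the lowest calls being without KG-1a replicate 2. With the replicate number as a block, 3214 genes were called higher, 3036 lower, 743 stood apart above and 570 below.

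A few single genes changed direction under 1 setting or more. On the tamibarotene arrays, BCL2 stood at 1.15, CYP26A1 at -0.41 and MSR1 at -0.022. With all probe sets of a gene averaged, CIITA stood at -0.23 and WDR33 at -0.33. HAVCR2 stood at 0.22 without Kasumi-1, and SOCS2 at -0.51 without OCI-AML3 and -0.71 without Sig-M5. With Sig-M5 and Kasumi-1 both left out, HAVCR2 stood at 0.23 and SOCS2 at -0.65. The cause was not tested.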

Other observations

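Of 18 erythroid markers, 11 were called lower and 3 higher in KG-1a by limma (61.1% and 16.7%, against 17.7% and 19.0% of all genes). KG-1a was the lowest line for only 2 of the 18, and the mean of the other lines includes OCI-M1. With line means taken off the log2 scale and summed over the list, OCI-M1 gave 13760 and KG-1a 3384. The remaining lines gave 1283 (OCI-AML3) to 3598 (Sig-M5). RHAG, the Rh-associated glycoprotein of red cells, read 10.40 and 10.31 in KG-1a, against 3.85 to 10.54 elsewhere, at the level of OCI-M1 (10.48). KLF1, the erythroid Kruppel-like factor, read 4.59 and 4.38 in KG-1a, against 4.72 to 11.36 elsewhere, again highest in OCI-M1. ITGA2B, the platelet integrin CD41, read 10.41 and 10.52 in KG-1a, against 3.94 to 10.42 elsewhere, while of 17 megakaryocyte genes 3 were called higher and 1 lower (17.6% and 5.88%, near or under the shares of all genes). KG-1a thus shared RHAG and ITGA2B with OCI-M1 and lacked its high KLF1.

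Of 32 genes of MYC and ribosome biogenesis, 18 were called higher and 2 lower (56.25% and 6.25%, against 19.0% and 17.7% of all genes). Their median was 0.38. WDR74, a ribosome assembly factor, read 10.61 and 10.61 in KG-1a, against 8.62 to 9.83 elsewhere, and MYC read 12.72 and 12.68 in KG-1a, against 10.86 to 12.79 elsewhere. Single genes of other lists stood apart. CLEC9A, a dendritic cell receptor for dead cells, read 6.10 and 5.90 in KG-1a, against 2.51 to 3.25 elsewhere. CDH2, or N-cadherin, read 8.58 and 8.60 in KG-1a, against 4.76 to 7.77 elsewhere. PYCARD, the inflammasome adaptor ASC, read 6.58 and 6.62 in KG-1a, against 8.73 to 11.92 elsewhere, and IL1B, an inflammasome product, read 8.90 and 8.87 in KG-1a, against 4.61 to 8.71 elsewhere. Of 14 reference genes, 2 were called higher and 3 lower (14.3% and 21.4%, against 19.0% and 17.7% of all genes). ACTB and GAPDH were not called (0.21 and 0.06).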
